A study of Homo sapiens with 8 samples.

Results

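The UPF and SMG genes encode the core machinery of nonsense-mediated decay, and 9 of them, UPF1, UPF2, UPF3A, UPF3B, SMG1, SMG5, SMG6, SMG8 and SMG9, were followed here as transcripts in cells with altered MOV10. They were chosen by name, and all 9 were found among the 23368 gene symbols of the count table and among the 15254 genes that passed the filter on low counts. Nonsense-mediated decay removes mRNAs on which a ribosome stops too early. UPF1, an RNA helicase, is loaded near the stop codon, UPF2 bridges it to UPF3B or UPF3A on an exon junction complex, and the kinase SMG1, held in check by SMG8 and SMG9, phosphorylates UPF1. Phosphorylated UPF1 then attracts SMG6, an endonuclease that cuts the mRNA, and SMG5, an adaptor that helps to bring in decay enzymes and to return UPF1 to its unphosphorylated form. Several of these factors are encoded by mRNAs that are themselves targets of the pathway in human cells. MOV10, the gene altered in the study, is a helicase of the same superfamily 1 as UPF1 and binds to it.

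RNA was sequenced from HEK293F cells, a line derived from human embryonic kidney, in 3 groups. In the overexpression group (3 libraries, replicates 1, 2 and 3) the cells had received a plasmid for myc-tagged MOV10 once. In the knockdown group (2 libraries, replicates 2 and 3) they had received siRNA against MOV10, and in the control group (3 libraries, replicates 1, 2 and 3) an irrelevant siRNA, in both cases 3 times at 24 h intervals. The overexpression comparison therefore also holds the difference between 1 plasmid transfection and repeated siRNA. No cells with an empty plasmid were analysed here, and the promoter of the plasmid is not given in the sources used here. Nothing in the labels ties the libraries of a group to different cultures. The p-values therefore reflect how libraries varied, which may be technical.

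Libraries held 12737889 to 32826936 counted reads. MOV10 stood at 2454 to 2971 CPM (read counts scaled to library size, corrected by TMM factors) with overexpression, at 50.6 and 55.5 CPM with knockdown and at 76.4 to 91.2 CPM in control libraries, as the labels say. VIM, KRT8, KRT18, NEFL, NEFM and PAX2, which HEK293 cells express, were found in every library, with VIM at 746 to 1095 CPM. Of markers of other cells, HBB had 0 reads, PTPRC, CD3E and MYH7 had at most 2 reads in a library, PECAM1 at most 12 and ALB at most 27. In bulk RNA such as this, less of a transcript per cell and fewer cells that hold it cannot be told apart.

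Per length, SMG5 was the most abundant of the 9 transcripts and UPF3A the least in all 3 groups. CPM was divided by the kilobases of annotated exon (GENCODE 29), a length that includes exons these cells may not use. On this scale SMG5 averaged 41.9 ± 1.795 CPM per kb with overexpression, 57.6 ± 1.01 with knockdown and 52.7 ± 0.890 in control cells (SD, n = 3, 2 and 3). UPF3A averaged 4.04 ± 0.0963, 3.94 ± 0.0598 and 3.85 ± 0.0260 CPM per kb in the same groups. In control cells the order was SMG5, UPF1 (27.6 ± 0.184), UPF3B (23.1 ± 0.869), SMG8 (22.2 ± 0.322), UPF2 (14.8 to 15.4 over the libraries), SMG9 (9.48 ± 0.372), SMG1 (7.59 ± 0.310), SMG6 (7.23 ± 0.135) and UPF3A. The control libraries of UPF3B and SMG8 overlapped, and so did those of SMG1 and SMG6, so these neighbours cannot be ordered. With overexpression UPF1 and UPF3B overlapped, as did SMG1 and SMG9, and with knockdown SMG8 stood above UPF3B in both libraries.

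**Figure D1:**
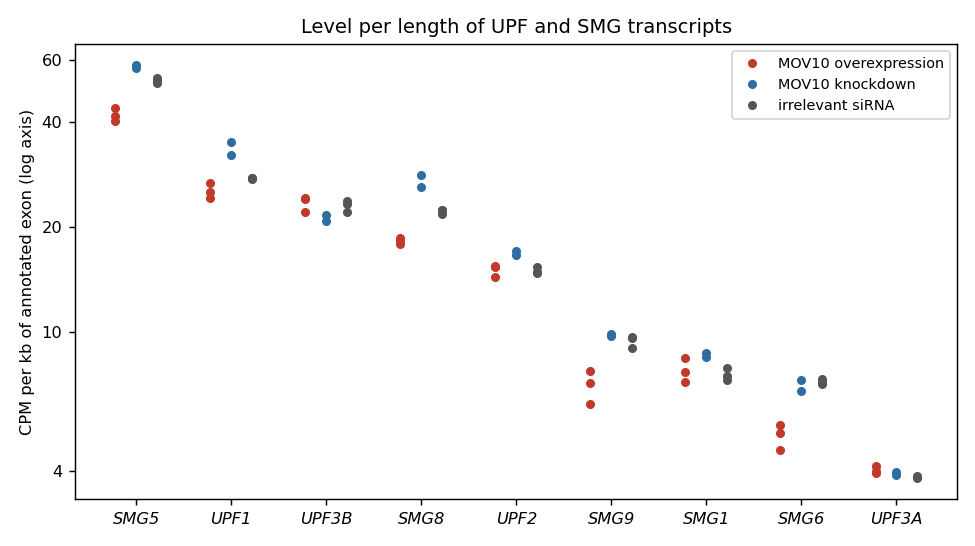
CPM per kb of annotated exon (log axis) of the 9 transcripts, 1 point per library, for MOV10 overexpression, MOV10 knockdown and irrelevant siRNA from left to right within each gene. SMG5 lies highest and UPF3A lowest, and the overexpression points of SMG5, UPF1, SMG8, SMG9 and SMG6 lie below both other groups.

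Together the 9 genes took 0.101% to 0.104% of all counted reads in overexpression libraries, 0.120% and 0.123% in knockdown libraries and 0.113% in each control library. The 3 groups did not overlap in this share, which was not tested because the genes were chosen as a set. The fewest reads behind any value were 312, for UPF3A in overexpression replicate 3, and the most were 9755, for SMG5 in knockdown replicate 2.

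Promoter sequences, 250 bases before to 50 after a transcription start (RefSeq, GRCh38.p14), were at hand for 8 of the 9 genes, in 15 windows. The core of the sites of the factor NRF1, spelled GCGCA, any 1 base and then GCGC, occurred on either strand in a window of 4 genes, UPF1, UPF2, SMG6 and SMG9, against 6.98% of 27305 genes and 5.78% of 35116 windows. These shares, and those of the other letters below, are over all promoters searched. They were not matched to the factors in base composition or expression. The windows are shown as a description. Of these genes UPF1, SMG6 and SMG9 are among the transcripts that fell with overexpression, as given below, while UPF2 is not. SMG5, which also fell, had no match in its windows, and SMG8, which fell too, had no promoter sequence at hand. A link between the letters and the changes was not tested. Each line gives 30 bases of the gene's own strand, with the match in capitals. UPF2 has a further match that overlaps the one in capitals, and SMG9 has another, not printed, 26 bases after its start.
UPF1 (chr19:18831832-18831861, plus strand): cccaccccctGCGCGTGCGCggtgcgcgtc
UPF1 (chr19:18831916-18831945, plus strand): cgtcgggctcGCGCACGCGCacggcgacgg
UPF2 (chr10:12043267-12043296, minus strand): cccccgcgaaGCGCCTGCGCctgcgcagct
SMG6 (chr17:2303936-2303965, minus strand): ccgcacctctGCGCACGCGCagcgcccgcc
SMG9 (chr19:43755054-43755083, minus strand): ccccaaccgcGCGCACGCGCattgagtcag
The letters GGGCGG (a core of SP1 sites) occurred in 7 of the 8 genes against 48.3% of all genes, and CCAAT in 4 of 8 against 39.7%. CCGGAAG was found in 1 of 8 genes, UPF3A, against 12.2% of all genes. The letters TATAAA (14.0% of all genes), TGACGTCA (2.25%) and the core of YY1 sites, AAGATGG followed by CGGC (1.04%), occurred in 0 of the 8. All letters were searched on both strands, none of the 7 strings contains another, and a match is a description of these windows and not a bound site.

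The transcripts shared little else that the annotation shows. Their longest annotated 3' UTRs ran from 331 nt in SMG8 to 4719 nt in SMG1, with a median of 1366 nt, beside 1402 nt over 12865 tested coding genes. SMG1, SMG8 and SMG9, 3 of the 9, have a transcript annotated as a target of nonsense-mediated decay, as do 41.5% of 12880 tested coding genes. The genes lie on chromosomes 1, 10, 13, 16, 17, 19 and X.

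The comparison of overexpression with control asked how the factors stand when MOV10 is abundant. Both factors that act on phosphorylated UPF1, both regulators of the SMG1 kinase and UPF1 itself were lower, by 0.12 to 0.51 on the log2 scale, while UPF2, UPF3A, UPF3B and SMG1 did not pass. Thus 5 of 9 fell, against 24.1% of all genes tested, while 49.2% of all genes were called in either direction. None rose, against 25.2% of all genes, by edgeR's quasi-likelihood test (0 also at an unadjusted p under 0.05, by DESeq2 and by limma-voom). Their median log2 fold change was -0.12, beside 0.01 over all genes tested. With library totals in place of TMM, 60.1% in place of 51.1% of all called genes were higher, and 4 of the 9 fell.

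SMG6, the endonuclease, changed most. It stood at 54.3, 57.3 and 48.5 CPM in overexpression libraries, against 77.8, 75.1 and 75.9 CPM in control libraries, and the groups did not overlap. All overexpression libraries lay below all control libraries in 27.5% of all genes tested, and in 5 of the 9 factors, SMG6, SMG5, SMG8, SMG9 and UPF1. The log2 fold change was -0.51 ± 0.06 (SE), a level 0.703 times that of control, with an edgeR adjusted p of 1.06e-06. In the annotation 22.9% of the SMG6 exon length lies opposite exons of HIC1. The strand setting of the counting is not given, so reads of both genes could be mixed there. HIC1 itself was at 2.08 to 3.58 CPM with overexpression and at 2.17 to 2.59 CPM in control libraries, and did not pass (edgeR adjusted p = 0.195). Its part in the counts of SMG6 was not tested.

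SMG5, the adaptor, had 221, 232 and 214 CPM in overexpression libraries, against 284, 274 and 280.0 CPM in control libraries. Every overexpression library lay below every control library, with a log2 fold change of -0.33 ± 0.05 and an edgeR adjusted p of 6.53e-06.

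Of the subunits of the SMG1 complex, the regulators SMG8 and SMG9 fell and the kinase did not pass. SMG9 stood at 56.9, 61.5 and 49.5 CPM with overexpression, against 76.6, 77.0 and 71.7 CPM in control libraries, a log2 fold change of -0.42 ± 0.06 (edgeR adjusted p = 2.21e-05). SMG8 stood at 68.3, 69.8 and 67.0 CPM with overexpression, against 83.8, 84.0 and 81.8 CPM in control libraries, a log2 fold change of -0.28 ± 0.05 (edgeR adjusted p = 0.000145). For both subunits all overexpression libraries were low and the groups did not overlap. SMG1 itself stood at 219, 188 and 201 CPM with overexpression, against 190.4, 206 and 195 CPM in control libraries, with overlapping groups, a log2 fold change of 0.04 ± 0.05 and an edgeR adjusted p of 0.571. SMG1 has pseudogene copies, of which 4 (SMG1P1, SMG1P2, SMG1P3 and SMG1P5) were in the table under LOC symbols, with reads equal to 3.52% to 5.13% of those of SMG1, and reads could be split between them.

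UPF1, the helicase at the centre of the pathway, moved little with overexpression. It had 208, 229.9 and 217 CPM in overexpression libraries, against 239, 238 and 236 CPM in control libraries. All 3 overexpression libraries lay below the controls, by a log2 fold change of -0.12 ± 0.05 with an edgeR adjusted p of 0.0446. This call was lost with library totals as the scaling (edgeR adjusted p = 0.166), in a fit blocked on replicate (0.0523) and without any of 5 libraries, namely overexpression replicate 1 (0.21), control replicates 1 (0.136), 2 (0.112) and 3 (0.0768) and knockdown replicate 3 (0.0516). The calls of SMG5, SMG6, SMG8 and SMG9 with overexpression stayed past the threshold in all 18 alternatives.

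The bridge to the exon junction complex did not pass with overexpression. UPF2 stood at 91.2, 84.8 and 90.9 CPM with overexpression, against 87.7, 87.2 and 90.9 CPM in control libraries, and the groups overlapped (log2 fold change 0.01 ± 0.05, edgeR adjusted p = 0.938). UPF3B stood at 74.3, 68.3 and 74.8 CPM with overexpression, against 71.6, 68.1 and 73.3 CPM in control libraries, also with overlap (0.03 ± 0.06, adjusted p = 0.7). UPF3A had 22.8, 23.2 and 23.9 CPM in overexpression libraries, against 22.1, 22.3 and 22.4 CPM in control libraries. All its overexpression libraries were the higher ones, as for 28.5% of all genes tested, yet the difference of 0.07 ± 0.07 on the log2 scale did not pass (edgeR adjusted p = 0.444).

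**Figure D2:**
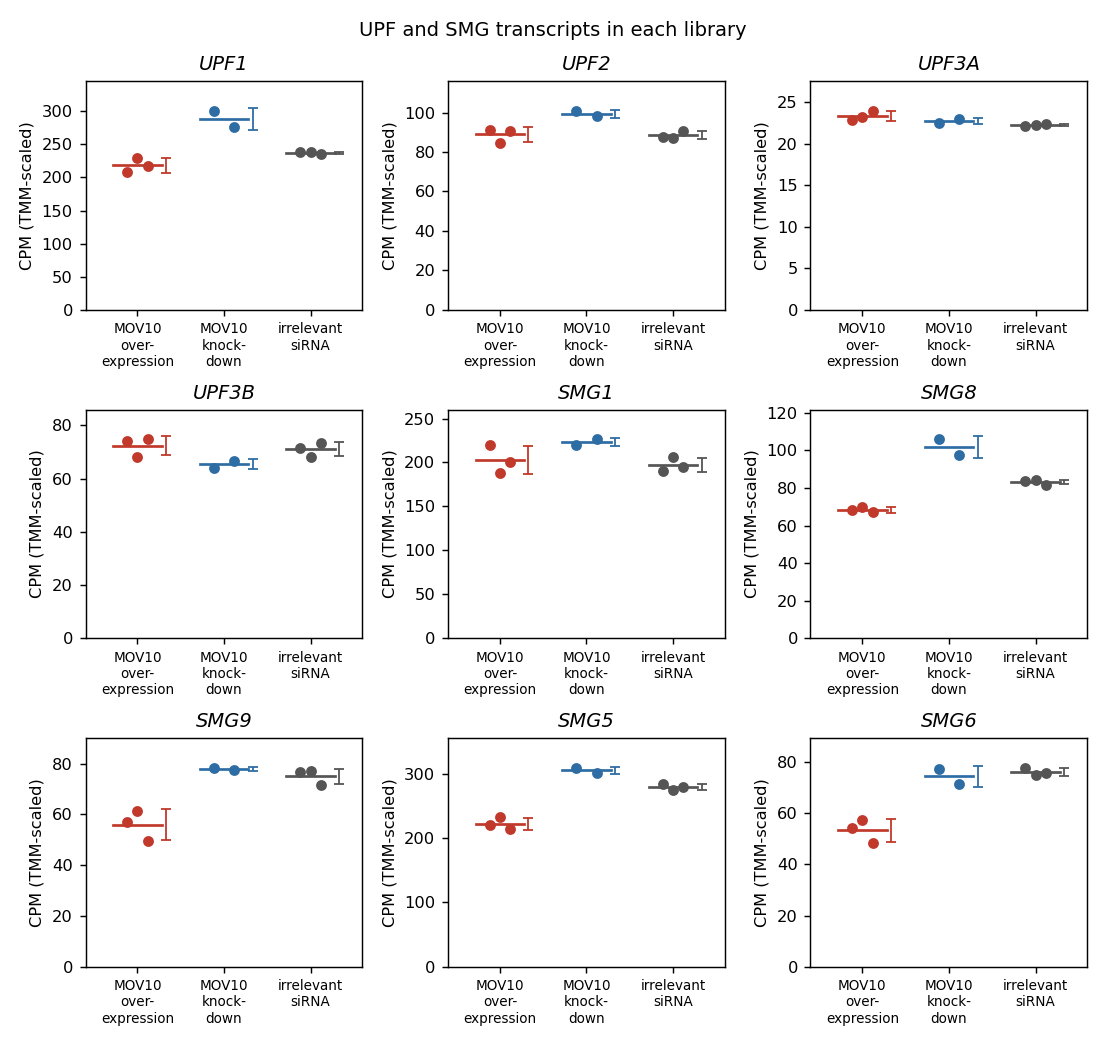
TMM-scaled CPM of each transcript in each library (points), with the group mean (line) and SD (bar), for MOV10 overexpression (n = 3), MOV10 knockdown (n = 2) and irrelevant siRNA (n = 3), on axes that start at 0. SMG5, SMG6, SMG8 and SMG9 are low in all overexpression libraries, and UPF1 and SMG8 are high in both knockdown libraries.

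The comparison of knockdown with control asked how the factors stand when MOV10 is reduced. UPF1, its partner UPF2, the kinase SMG1, the kinase regulator SMG8 and SMG5 rose, by 0.13 to 0.29 on the log2 scale, while UPF3A, UPF3B, SMG6 and SMG9 did not pass. Thus 5 of 9 rose, against 19.9% of all genes tested, while 39.0% of all genes were called in either direction. None fell, against 19.1% of all genes, by edgeR's test (0 also at an unadjusted p under 0.05, by DESeq2 and by limma-voom). The median log2 fold change of the 9 was 0.13, beside 0.00 over all genes. With library totals, 39.5% in place of 51.1% of all called genes were higher, 2 of the 9 rose (UPF1 and SMG8) and 1, UPF3B, fell (edgeR adjusted p = 0.0371).

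SMG8 and UPF1 changed most with knockdown. SMG8 stood at 106 and 97.8 CPM in knockdown libraries, against 83.8, 84.0 and 81.8 CPM in control libraries, a log2 fold change of 0.29 ± 0.06 with an edgeR adjusted p of 0.000313. UPF1 had 301 and 277 CPM in knockdown libraries, against 239, 238 and 236 CPM in control libraries, a log2 fold change of 0.28 ± 0.05 with an edgeR adjusted p of 0.000317. For both genes the 2 knockdown libraries lay above every control library, and both calls stayed past the threshold in all 18 alternatives.

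SMG1, UPF2 and SMG5 rose by less. SMG1 stood at 220.2 and 226 CPM with knockdown, against 190.4, 206 and 195 CPM in control libraries (log2 fold change 0.18 ± 0.06, edgeR adjusted p = 0.0226). UPF2 stood at 101 and 98.1 CPM with knockdown, against 87.7, 87.2 and 90.9 CPM in control libraries (0.17 ± 0.06, edgeR adjusted p = 0.0205). SMG5 stood at 309 and 302 CPM with knockdown, against 284, 274 and 280.0 CPM in control libraries (0.13 ± 0.05, edgeR adjusted p = 0.0453). In these 3 genes as well both knockdown libraries were above every control library, an arrangement found in 32.5% of all genes tested.

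These 3 calls depended on single libraries. The call of SMG1 was lost without knockdown replicate 2 (edgeR adjusted p = 0.0923) or 3 (0.126) and without control replicate 1 (0.1) or 3 (0.0798). That of UPF2 was lost without knockdown replicate 2 (0.19) or 3 (0.0549) and without control replicate 1 (0.0722) or 2 (0.0784). That of SMG5 was lost without knockdown replicate 2 (0.278) or 3 (0.092), without control replicate 1 (0.0775), 2 (0.152) or 3 (0.115), without overexpression replicate 1 (0.0751), and in a fit blocked on replicate (0.0852), 11 of 18 alternatives in all. With any 1 of the knockdown or control libraries left out, 2 or 3 of the 9 genes rose in place of 5.

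The remaining 4 did not pass with knockdown. SMG6 stood at 77.3 and 71.6 CPM with knockdown, against 77.8, 75.1 and 75.9 CPM in control libraries, with overlap and a log2 fold change of -0.03 ± 0.06 (edgeR adjusted p = 0.728). SMG9 was at 78.4 and 77.4 CPM with knockdown, against 76.6, 77.0 and 71.7 CPM in control libraries (0.05 ± 0.07, edgeR adjusted p = 0.596). Of the UPF3 paralogs, UPF3A was at 22.5 and 23.0 CPM with knockdown, against 22.1, 22.3 and 22.4 CPM in control libraries (0.03 ± 0.07, edgeR adjusted p = 0.779). UPF3B was at 64.1 and 66.8 CPM with knockdown, against 71.6, 68.1 and 73.3 CPM in control libraries, below all of them, as for 31.1% of all genes tested, with a log2 fold change of -0.12 ± 0.06 and an edgeR adjusted p of 0.13. SMG9, UPF3A and UPF3B thus did not overlap with control in single libraries. SMG9 and UPF3A lay above all control libraries, as for 32.5% of all genes tested. The differences of SMG9, UPF3A and UPF3B were within the spread that the test allows.

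Both comparisons used the same control libraries, so the responses to overexpression and knockdown are not independent. Set side by side, UPF1, SMG5 and SMG8 were called lower with overexpression and higher with knockdown, SMG6 and SMG9 were called with overexpression only, and UPF2 and SMG1 with knockdown only. Over all genes tested, 3.91% were called lower with overexpression and higher with knockdown, 14.4% lower with overexpression and not called with knockdown, and 8.69% higher with knockdown and not called with overexpression. Of the 3 genes, SMG8 alone kept both calls in all 18 alternatives.

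Whether the effects of overexpression and knockdown differed was tested directly by setting overexpression against knockdown. In this comparison 6 of 9 factors were lower, against 28.1% of all genes tested, and 1 was higher, against 29.3%. Of all genes, 57.4% were called in either direction. SMG8 differed most, at -0.58 ± 0.06 on the log2 scale (edgeR adjusted p = 4.89e-08), followed by SMG6 at -0.48 ± 0.07 (edgeR adjusted p = 4.13e-06), SMG9 at -0.47 ± 0.07 (edgeR adjusted p = 1.06e-05), SMG5 at -0.46 ± 0.05 (edgeR adjusted p = 2.17e-07) and UPF1 at -0.41 ± 0.05 (edgeR adjusted p = 2.5e-06). In each of these 5 genes the 3 overexpression libraries lay below both knockdown libraries, as they did in 33.7% of all genes tested, and the 5 calls held in all 18 alternatives. SMG6 and SMG9, which passed with overexpression and not with knockdown, thus did differ between overexpression and knockdown. With library totals 65.5% in place of 51.0% of all called genes were higher, and 5 of the 9 were lower.

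UPF2, SMG1 and UPF3B lay near the threshold in this comparison. UPF2 was lower by -0.16 ± 0.06 on the log2 scale (edgeR adjusted p = 0.0165), a call lost with library totals (0.233) and without knockdown replicate 2 (0.14) or overexpression replicate 2 (0.0676). SMG1 was at -0.14 ± 0.06 and missed the threshold (edgeR adjusted p = 0.0532), but passed in 6 of 18 alternatives, with DESeq2 size factors (0.0421), without a filter (0.0219), by limma-voom (0.0468), without overexpression replicate 1 (0.011) or 3 (0.0295) and with its pseudogene copies added (0.0364). UPF3B was higher in every overexpression library than in both knockdown libraries, as for 35.4% of all genes tested, by 0.15 ± 0.06 (edgeR adjusted p = 0.045), and in 12 of 18 alternatives that call was lost. These included leaving out any library except overexpression replicate 2, with adjusted p-values from 0.0507 (without overexpression replicate 3) to 0.282 (without knockdown replicate 2). UPF3A did not pass (0.04 ± 0.07, edgeR adjusted p = 0.699).

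**Figure D3:**
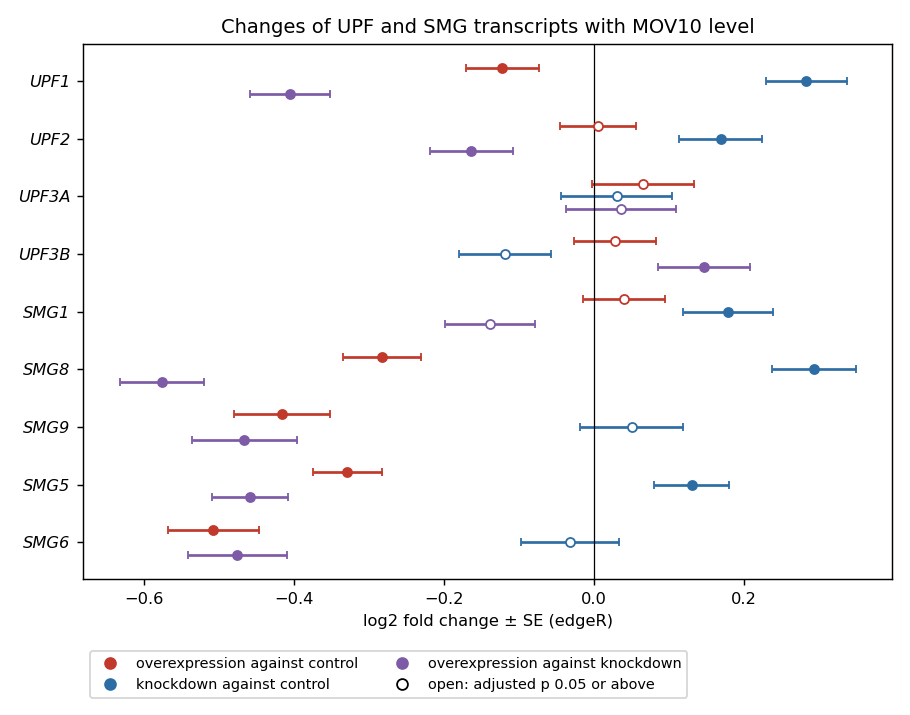
Log2 fold changes with SE (edgeR) of the 9 transcripts for overexpression against control, knockdown against control and overexpression against knockdown, with open symbols where the adjusted p was 0.05 or above. SMG8 and UPF1 lie on opposite sides of 0 with overexpression and with knockdown, and SMG6 and SMG9 are lower with overexpression while their knockdown symbols are open.

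UPF3A and UPF3B are paralogs, and UPF3A protein is known to be stabilised when UPF3B is lacking. Within a library the ratio of both transcripts does not depend on scaling. The log2 ratio of UPF3A to UPF3B per kb was -2.61, -2.46 and -2.55 in overexpression libraries, -2.42 and -2.44 in knockdown libraries and -2.60, -2.52 and -2.62 in control libraries. Both knockdown libraries had the highest ratios. The difference was 0.04 for overexpression against control (exact permutation test, two-sided, p = 0.6), 0.15 for knockdown against control (exact p = 0.2) and -0.11 for overexpression against knockdown (exact p = 0.2). With 3 libraries against 3 the smallest p is 0.1 and with 3 and 2 it is 0.2, so no difference could have passed 0.05.

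Other factors of nonsense-mediated decay were taken from a list of 9. With overexpression 3 of them fell, among them DHX34, a helicase that promotes remodelling of the complex, at -0.65 ± 0.05 (edgeR adjusted p = 8.97e-09) and NCBP1, of the nuclear cap-binding complex, at -0.28 ± 0.05 (3.78e-05). The other 6, among them the release factor ETF1 at -0.10 ± 0.05, did not pass. With knockdown 3 rose, GNL2 at 0.28 ± 0.05 (edgeR adjusted p = 0.000253), PNRC2, an adaptor to decapping, at 0.20 ± 0.06 (0.00834) and NBAS at 0.16 ± 0.06 (0.0464), and 6 did not pass, among them DHX34 at 0.14 ± 0.06 (0.0517). The medians were -0.09 and 0.11. Of all genes tested, 24.1% fell with overexpression and 19.9% rose with knockdown. Without overexpression replicate 3 the list had 5 lower genes with overexpression, and with knockdown it had 1 higher gene without control replicate 3 or knockdown replicate 2 and 5 higher genes and 1 lower gene without overexpression replicate 2 or 3. In a fit of only the 2 groups compared, 5 rose and 1 fell with knockdown, and with library totals 2 rose and 1 fell.

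The exon junction complex marks spliced junctions and recruits UPF3B. Of 9 genes, 6 fell with overexpression, with RBM8A, a core subunit, at -0.53 ± 0.05 (edgeR adjusted p = 8.68e-08), the core subunit gene CASC3 at -0.23 ± 0.04 (0.000185), WIBG, which helps to take the complex apart, at -0.31 ± 0.07 (0.000651) and EIF4A3, the helicase that clamps the RNA, at -0.22 ± 0.05 (0.00126). With knockdown 4 rose, among them EIF4A3 at 0.40 ± 0.05 (edgeR adjusted p = 9.25e-06), ACIN1 at 0.34 ± 0.05 (6.16e-05) and CASC3 at 0.26 ± 0.05 (0.000236), and MAGOHB fell (-0.33 ± 0.07, 0.00155). The medians were -0.18 and 0.14. Among all genes tested, 24.1% fell with overexpression, and 19.9% rose and 19.1% fell with knockdown. Without overexpression replicate 3 the lower genes with knockdown numbered 2, as in a fit of only the 2 groups compared, and with library totals 3 rose and 3 fell.

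Genes of decapping and 5' to 3' decay, which finish off the cleaved mRNA, moved both ways. Of 7 genes, 2 rose and 3 fell with overexpression (median 0.00), including the decapping scaffold gene EDC4 at -0.49 ± 0.05 (edgeR adjusted p = 3.03e-07) and the decapping cofactor gene DCP1A at 0.22 ± 0.05 (0.00107). With knockdown 1 rose, DCP1A at 0.46 ± 0.05 (edgeR adjusted p = 1.62e-06), and 2 fell, the deadenylase gene CNOT8 at -0.58 ± 0.06 (2.64e-07) and the decapping enzyme gene DCP2 at -0.28 ± 0.05 (0.000403), with a median of -0.02. Without overexpression replicate 3, or in a fit of only the 2 groups compared, 2 genes of this list rose with knockdown. Over all genes tested, 25.2% rose and 24.1% fell with overexpression, and 19.9% rose and 19.1% fell with knockdown.

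The kinases related to SMG1 and the factors that assemble them were counted apart. The shares over all genes tested were 19.9% higher and 19.1% lower with knockdown, and 25.2% higher and 24.1% lower with overexpression. Of the 5 other members of the kinase family, 4 rose with knockdown, ATR (0.47 ± 0.06, edgeR adjusted p = 3.83e-06), MTOR (0.44 ± 0.05, 2.25e-06), TRRAP (0.23 ± 0.07, 0.00853) and ATM (0.21 ± 0.06, 0.0128). The list median was 0.23, and 3 of the 5 rose without control replicate 1 or 3. Fewer than 4 also rose when either knockdown library was left out, which leaves 1 library in that group. With overexpression MTOR (-0.21 ± 0.05, edgeR adjusted p = 0.0012) and TRRAP (-0.17 ± 0.06, 0.0234) fell and ATR rose (0.20 ± 0.05, 0.00525), with a median of -0.09. The lower genes numbered 1 with library totals and without control replicate 2 or 3 or overexpression replicate 2. Of 7 assembly factors 4 fell with overexpression, among them the helicase gene RUVBL1 (-0.31 ± 0.04, edgeR adjusted p = 9.3e-06) and TELO2 (-0.36 ± 0.08, 0.000687), and PIH1D1 rose (0.21 ± 0.06, 0.00377). With knockdown 0 of the 7 passed by edgeR, DESeq2 or limma-voom, and 1, RUVBL1 at -0.10 ± 0.05, had an unadjusted p under 0.05. Without overexpression replicate 3, or with only the 2 groups compared, 1 rose and 1 fell, and with library totals 1 fell.

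Helicases related to UPF1 were also mixed. Of 8 genes, MOV10 included, 2 rose and 2 fell with overexpression, against 25.2% and 24.1% of all genes tested. With knockdown these shares were 19.9% and 19.1%. MOV10 was the gene altered, so its own changes were set by the design. Among the others, with MOV10 left out, 2 rose and 0 fell with knockdown, and 1 rose and 2 fell with overexpression. PRIC285, which encodes the helicase also named HELZ2, rose by 0.61 ± 0.07 (edgeR adjusted p = 5.98e-07), IGHMBP2 stood at -0.26 ± 0.07 (0.00254) and the nuclease and helicase gene DNA2 at -0.26 ± 0.06 (0.000804). With knockdown AQR, a splicing helicase gene, and PRIC285 rose (0.31 ± 0.06, edgeR adjusted p = 0.000519, and 0.23 ± 0.08, 0.0218) and MOV10 fell, while 1 of the 8 rose with library totals, 4 with only the 2 groups compared, and 1 without control replicate 2 or 3 or without either knockdown library.

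Transcripts known as targets of nonsense-mediated decay are raised when the pathway is blocked in human cells. Many of them are also raised by stress and other signals, so their level does not measure decay. With overexpression 10 of 21 rose and 4 fell (median 0.19), against 25.2% and 24.1% of all genes tested. With knockdown 11 rose (median 0.20), against 19.9% of all genes tested, the other 10 not passing. With library totals 10 rose and 2 fell with knockdown. With only the 2 groups compared 13 rose and 2 fell, as without overexpression replicate 3, while 10 rose and 1 fell without control replicate 3. The fewest of any alternative rose without knockdown replicate 2, and more than 11 rose without knockdown replicate 3. Each of these 2 fits leaves 1 library in that group. ATF3, a stress-induced transcription factor gene, rose with overexpression (0.73 ± 0.05, edgeR adjusted p = 3.94e-10) and with knockdown (0.63 ± 0.05, 1.33e-08), as did the small nucleolar RNA host gene SNHG15 (0.75 ± 0.06, 3.03e-09, and 0.48 ± 0.06, 4.3e-06) and the growth-arrest gene GADD45A (0.59 ± 0.05, 8.75e-09, and 0.52 ± 0.05, 2.42e-07). GADD45B, its relative, fell with overexpression (-0.59 ± 0.07, 1.17e-06) and rose with knockdown (0.82 ± 0.07, 3.74e-08). GAS5, another host gene, rose with overexpression (0.50 ± 0.06, edgeR adjusted p = 8.98e-07) and was at 0.07 ± 0.07 with knockdown (0.397). Both sets of values rest on the same control libraries.

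Genes with the most similar profiles over the 8 libraries were sought among 11222 genes whose log2 CPM averaged 3 or more, as a description. The closest to UPF1 were B3GALT6, MFSD11 and SDF4 (Pearson r of 0.990, 0.987 and 0.985). For SMG6, which had the smallest adjusted p with overexpression, they were FEM1A, AP1B1 and CHMP4B (0.997 each). For SMG8, which had the smallest with knockdown, they were CASC3, TNRC18 and LETM1 (0.997, 0.996 and 0.995). All these values share the same 8 libraries and their 3 groups, and CASC3 is also in the exon junction list.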

How the data were processed

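The deposited values are raw counts of reads per gene symbol in 8 libraries, made by the authors and not normalized. Total RNA taken up in Trizol went into a stranded TruSeq kit, per the labels' protocols. The submitters' processing notes name the aligner TopHat2 (2.0.8), the counter HTSeq (0.5.3p9), the trimmer Trimmomatic (0.22), CASAVA (1.8.2), SAMtools (0.1.18), edgeR and the build hg19. How counting treated strand and multiply aligned reads is not given in the sources used here.

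Columns were matched to libraries by title. Genes were filtered with filterByExpr (minimum count 10, minimum total 15), scaled by TMM and tested in R 4.3.3 with edgeR 4.0.16 (glmQLFit and glmQLFTest, two-sided, all 8 libraries in 1 fit with 1 mean for every group). Benjamini-Hochberg adjustment ran over all 15254 genes, and calls needed an adjusted p under 0.05. The fitting code was tested on counts simulated from the fitted model, which checks the code and not how the libraries varied. Alternatives were DESeq2 1.42.0, limma-voom (limma 3.58.1), other scalings and filters, fewer groups, a replicate block and leaving out each library. The addition of the SMG1 copies was chosen after seeing the data. The members and gene lists were chosen with earlier results of these data known.

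Named were MOV10, the 9 factors, up to 4 genes per list, those of smallest adjusted p in each comparison with control, and for 3 factors the 3 genes closest by Pearson correlation of log2(CPM + 0.5). For 1 gene chosen in this way no values are given. PRIC285 and ZNFX1-AS1 are the table's symbols for HELZ2 and ZFAS1. Exon lengths and 3' UTRs came from GENCODE 29 and promoters from RefSeq, on another build than the counts. Replicates of a group differed beyond sampling noise, with a chi-square per gene of 1.85 to 7.81, and each was counted as 1 sample.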

Additional observations from a re-analysis of the deposited data

How the results depend on the processing

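Of the fold changes of single factors under alternatives, 424 kept their direction and side of the threshold, 43 lost a call, 8 gained one and 11, all uncalled, changed sign. UPF2 with overexpression was -0.000873 with DESeq2 size factors, -0.00322 without a filter, -0.000884 by DESeq2, -0.000217 with only the compared groups and -0.0176 to 0.0452 with single libraries left out. UPF3B and SMG1 with overexpression spanned -0.00199 to 0.0756 and -0.0265 to 0.0994, and SMG6 with knockdown -0.0955 to 0.0228, with single libraries left out. UPF3A with knockdown was -0.016 with library totals. With knockdown, library totals gave 2 higher factors in place of 5 and 1 lower in place of 0, the fit of only the compared groups also gave 1 lower, and 2 to 5 were higher with single libraries left out. For overexpression against knockdown, the 1 higher factor became 0 with DESeq2 size factors, no filter, DESeq2, only the compared groups or the replicate block, and 0 to 1 with single libraries left out. Over all genes, knockdown gave 1577 to 3749 higher and 1466 to 3484 lower genes with single libraries left out. The cause was not tested. Same-numbered libraries correlated at -0.0847 to 0.0900 in their deviations from the group mean. Deviations cancel within such small groups, so these values cannot show whether the numbers pair libraries. With the replicate block 4 factors fell with overexpression and 4 rose with knockdown. No control with an empty plasmid, 2 knockdown libraries and differences mostly under 0.5 on the log2 scale limit what can be called.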
